A study of Sus scrofa domesticus with 34 samples.

Results

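Transcripts of 5 genes, SLC1A6, PLCB4, PVALB, CDH7 and SVOP, were followed across 34 libraries labelled as pig muscle and across 4 vitamin D diets. They are genes of cerebellar Purkinje cells or of neurons more widely, and PVALB is also a gene of fast muscle fibres. The 5 were taken by name, each symbol matched 1 Ensembl identifier among the 31907 in the count files, and all 5 passed the filter on low counts that kept 13974 genes. The granule cell genes CBLN1 and CBLN3 and the fast troponin C gene TNNC2 served as comparisons.

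Each library came from 1 animal, a female or a castrated male, and was made with the QuantSeq kit, which reads the 3′ ends of polyadenylated transcripts. On the 25(OH)D diet (8 animals, 4 of them female), the only vitamin D was calcidiol, the 25-hydroxylated form of the vitamin, at 2000 IU per kg feed while the pigs were growing and 1500 IU while they were finished. The combination diet (8 animals, 4 female) supplied 1000 IU of 25(OH)D throughout on top of the same amounts of cholecalciferol as the control. Pigs on increased cholecalciferol (10 animals, 6 female) got 3000 IU and later 2500 IU of vitamin D3 per kg. Standard cholecalciferol, the control diet (8 animals, 4 female), had 2000 IU and later 1500 IU.

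Purkinje cells are the output neurons of the cerebellar cortex, and they receive glutamate from the parallel fibres of the very numerous granule cells. SLC1A6 encodes a glutamate transporter that Purkinje cells carry on their dendrites. PLCB4 encodes the phospholipase C that in these cells acts upstream of calcium release through the receptor ITPR1. Parvalbumin, the product of PVALB, binds calcium, and besides Purkinje cells it is made by fast-spiking interneurons and, in rodents, by fast-twitch muscle fibres, where it speeds relaxation. CDH7 encodes a type II cadherin, a protein of cell adhesion, and SVOP encodes a transporter-like protein of synaptic vesicles.

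Total gene counts ran from 1.34 to 30.4 M per library (M, mega), with a median of 6.67 M. Libraries of file numbers 30 to 34, which comprised 4 combination animals and 1 25(OH)D animal, held 1.34 to 2.69 M counts. In the 4 females of those file numbers, the Y chromosome gene EIF1AY lay at 4.73 to 6.38 CPM (each count divided by its library's TMM-scaled total in M), against 0.545 to 4.55 CPM in the other 14 females and 0.794 to 16.1 CPM in the 16 castrated males. Muscle was the labelled tissue, and TNNC2 was present in every library (296 to 1879 CPM), but so were the granule cell gene CBLN3 (101 to 1053 CPM) and the cerebral cortex gene TBR1 (1.60 to 60.3 CPM). The libraries were split into 2 sets at the widest gap in CBLN3. The gap measured 0.62 log2 units, or 18.2% of the log2 range of CBLN3 of 3.38 units. Whether CBLN3 forms 2 separate sets was not tested. The 13 libraries above the gap had 372 to 1053 CPM, and the 21 below it had 101 to 243 CPM. Above the gap lay 3 25(OH)D, 5 combination, 2 increased and 3 standard cholecalciferol libraries, among them all 5 of file numbers 30 to 34.

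SLC1A6 (ENSSSCG00000013833) was the member that varied most among libraries, with a lowest, median and highest level of 6.98, 16.1 and 36.6 CPM, from 44 to 778 raw counts. Its levels were 9.26, 17.8 and 35.1 CPM on 25(OH)D, 10.9, 20.6 and 27.6 CPM on the combination, 6.98, 10.9 and 28.1 CPM on increased cholecalciferol and 7.90, 14.2 and 36.6 CPM on standard cholecalciferol (lowest, median, highest). The 4 diets overlapped over most of that range. The SD of its log2 CPM over the 34 libraries was 0.66, where counting error alone would give 0.16, and 69.0% of the genes tested had a smaller SD.

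PLCB4 (ENSSSCG00000007058) ran from 49.3 over a median of 71.1 to 185 CPM. By diet it lay at 49.3, 62.0 and 135 CPM on 25(OH)D, at 57.7, 101 and 185 CPM on the combination, at 60.2, 71.1 and 179 CPM on increased cholecalciferol and at 53.9, 63.7 and 159 CPM on standard cholecalciferol. The diets overlapped, and the highest library on 25(OH)D was lower than the highest of each other diet. Its log2 SD was 0.56, close to the median of 0.49 over the genes tested.

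PVALB (ENSSSCG00000000138) ran from 421 over a median of 719 to 1526 CPM. Its lowest, median and highest levels were 628, 788 and 1526 CPM on 25(OH)D, 506, 887 and 1516 CPM on the combination, 437, 690 and 923 CPM on increased cholecalciferol and 421, 661 and 1208 CPM on standard cholecalciferol. The upper end of the combination diet was set by the 4 libraries of file numbers 30 to 34, which held the 4 highest PVALB levels of that diet.

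CDH7 (ENSSSCG00000004886) and SVOP (ENSSSCG00000009941) were the steadiest members. CDH7 lay at 14.2, 22.6 and 34.4 CPM over all libraries, and by diet at 15.4, 23.0 and 27.6 CPM on 25(OH)D, 17.1, 19.3 and 27.5 CPM on the combination, 14.2, 25.1 and 34.4 CPM on increased cholecalciferol and 16.1, 20.3 and 29.5 CPM on standard cholecalciferol. SVOP lay at 63.0, 98.7 and 165 CPM over all libraries, and by diet at 72.9, 105 and 165 CPM on 25(OH)D, 63.0, 102 and 124 CPM on the combination, 74.9, 92.2 and 107 CPM on increased cholecalciferol and 84.3, 112 and 132 CPM on standard cholecalciferol. Only 19.9% and 15.4% of the genes tested had a smaller log2 SD than CDH7 (0.31) and SVOP (0.29), and for CDH7 counting error alone would give 0.14.

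**Figure D1:**
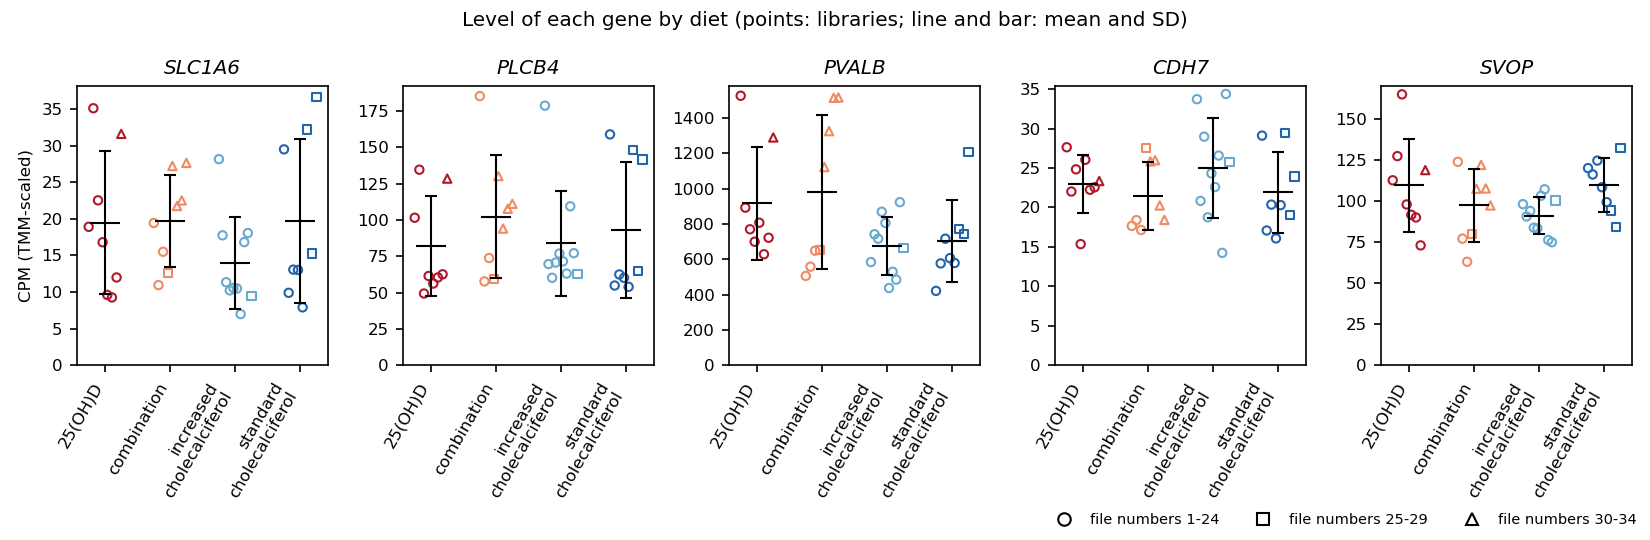
Level of each gene in CPM (y axis, linear, starting at 0) for the 4 diets (x axis). Points are libraries, shaped by file number, and the line and bar are the mean and SD (n = 8, 8, 10 and 8). The diets overlap for each gene, and the triangles of file numbers 30 to 34 stand among the highest PVALB levels, between 1122 and 1516 CPM.

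The first comparison asked which members moved with the amount of granule cell transcripts. SLC1A6 and PLCB4 were higher where CBLN3 was higher, while CDH7 and SVOP changed less over a range of CBLN3 of more than 3 doublings. In the 13 libraries above the CBLN3 gap, SLC1A6 lay at 16.8, 27.6 and 36.6 CPM (lowest, median, highest), against 6.98, 11.3 and 22.5 CPM in the 21 libraries below it, so that the sets overlapped. PLCB4 lay at 94.0, 130 and 185 CPM above the gap, against 49.3, 62.5 and 77.1 CPM below it, with no overlap. CDH7 had a median of 23.9 CPM (14.2 to 33.7) above the gap and 22.2 CPM (15.4 to 34.4) below it, and SVOP a median of 113 CPM (76.2 to 132) above and 91.6 CPM (63.0 to 165) below. These sets were defined from CBLN3 in the data and are not groups of the study, and in bulk libraries such as these, fewer cells of a type and less RNA per cell cannot be told apart.

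A joint model with CBLN3, TNNC2, diet and sex (edgeR quasi-likelihood F-test, Benjamini-Hochberg adjustment over 13972 genes) gave each gene a CBLN3 slope, the log2 change per doubling of CBLN3 at a fixed level of TNNC2. It passed the adjusted threshold of 0.05 as higher in 2 of the 5 members, where 19.8% of all genes tested were called higher and 20.1% lower. The slope was 0.56 for SLC1A6 (SE 0.08, 95% interval 0.41 to 0.72, adjusted p = 1.87e-07) and 0.58 for PLCB4 (SE 0.04, 0.50 to 0.67, adjusted p = 5.08e-14). Both intervals ended below that of the granule cell gene CBLN1, whose slope was 0.98 (0.89 to 1.06). The slope was 0.10 for PVALB (0.01 to 0.19, adjusted p = 0.0751), 0.09 for CDH7 (−0.03 to 0.21, adjusted p = 0.255) and 0.09 for SVOP (−0.02 to 0.20, adjusted p = 0.181), none of which passed. Within file numbers 1 to 24 alone, the slopes were 0.44 for SLC1A6 (adjusted p = 0.000328) and 0.53 for PLCB4 (adjusted p = 3.43e-09 by edgeR).

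The slopes of SLC1A6 and PLCB4 were smaller and less precise once the model held a term for the side of the gap. With the side of the gap as a term, they were 0.27 for SLC1A6 (SE 0.21, −0.15 to 0.69, adjusted p = 0.568) and 0.31 for PLCB4 (SE 0.10, 0.11 to 0.51, adjusted p = 0.0862 by edgeR), and the number of genes called went to 386, against 5573 without that term. The slope of CBLN1 was 0.77 (0.55 to 0.99) in that fit. Because the term was cut from CBLN3 itself, the fit cannot tell a step across the gap from lost precision. Scaling by total counts in place of TMM moved the median slope of all genes to 0.10, with 4907 genes called higher and 1655 lower, against 2766 and 2807 with TMM. On that scale CDH7 (0.17, adjusted p = 0.0111), SVOP (0.17, adjusted p = 0.00201) and PVALB (0.11, adjusted p = 0.0310) passed as well in edgeR, with slopes that exceeded that median by 0.07, 0.07 and 0.00. Leaving out single libraries also brought 2 of these slopes past the threshold, SVOP without 25(OH)D replicate 3 (adjusted p = 0.0431) and PVALB without combination replicate 1 (0.0314) or without increased cholecalciferol replicate 8 (0.0358). The slope of PVALB also passed with CBLN1 in place of CBLN3 (0.11, adjusted p = 0.0369 by edgeR). With ACTA1 in place of TNNC2 it was 0.14 (adjusted p = 0.000393 by edgeR). In 8 of 11 alternative settings of the model it did not pass.

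Over all 34 libraries, Pearson r with CBLN3 and CBLN1 was 0.802 and 0.850 for SLC1A6 and 0.933 and 0.951 for PLCB4 (permutation tests, adjusted p = 3.75e-05 for each over 30 relations). With CBLN3, r was 0.309 for PVALB, 0.228 for CDH7 and 0.346 for SVOP (adjusted p = 0.173, 0.323 and 0.113). Of these 3, only PVALB passed with CBLN1, by rank (Spearman rho = 0.426, adjusted p = 0.0384). Correlations with the granule genes were also taken within each of the 2 sets of libraries, as 20 relations with Benjamini-Hochberg adjustment (two-sided permutation tests of log2 CPM with 100000 resamples). CBLN3 spans a narrower range within each set than over all libraries, which can lower a correlation there. Above the gap (n = 13), PLCB4 followed CBLN3 (Pearson r = 0.725, p = 0.00568, adjusted p = 0.0284; Spearman rho = 0.835, p = 0.00064, adjusted p = 0.0037; r = 0.827 without the 2 farthest libraries) and CBLN1 (r = 0.826, permutation p = 0.0007, adjusted p = 0.00467; rho = 0.830, p = 0.00074, adjusted p = 0.0037; r = 0.783 without the 2 farthest). SLC1A6 above the gap passed by rank with CBLN1 only (rho = 0.714, permutation p = 0.00777, adjusted p = 0.0259; r = 0.650, p = 0.0183, adjusted p = 0.0732; r = 0.617 without the 2 farthest). Below the gap (n = 21), neither passed with either gene after adjustment. SLC1A6 had r = 0.055 and rho = 0.052 with CBLN3 there (permutation p = 0.813 and 0.824), and PLCB4 had r = 0.368 and rho = 0.369 (permutation p = 0.102 for both). With CBLN1, PLCB4 had r = 0.461 and rho = 0.448 there (permutation p = 0.0371 and 0.0440, adjusted p = 0.0891 and 0.0880), and r = 0.622 without the 2 farthest libraries. CDH7 passed with neither gene on either side, with r between 0.188 and 0.325 (smallest permutation p = 0.278 for r and 0.289 for rho).

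SVOP had correlations of opposite sign in the 2 sets of libraries. Above the gap its r was 0.424 with CBLN3 and 0.143 with CBLN1 (permutation p = 0.149 and 0.648, rho = 0.440 and 0.137). Below the gap r was −0.321 and −0.492 (permutation p = 0.156 and 0.0246, adjusted p = 0.241 and 0.0760), and rho with CBLN1 was −0.600 (permutation p = 0.0047, adjusted p = 0.0188). The difference between the sides was not tested.

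**Figure D2:**
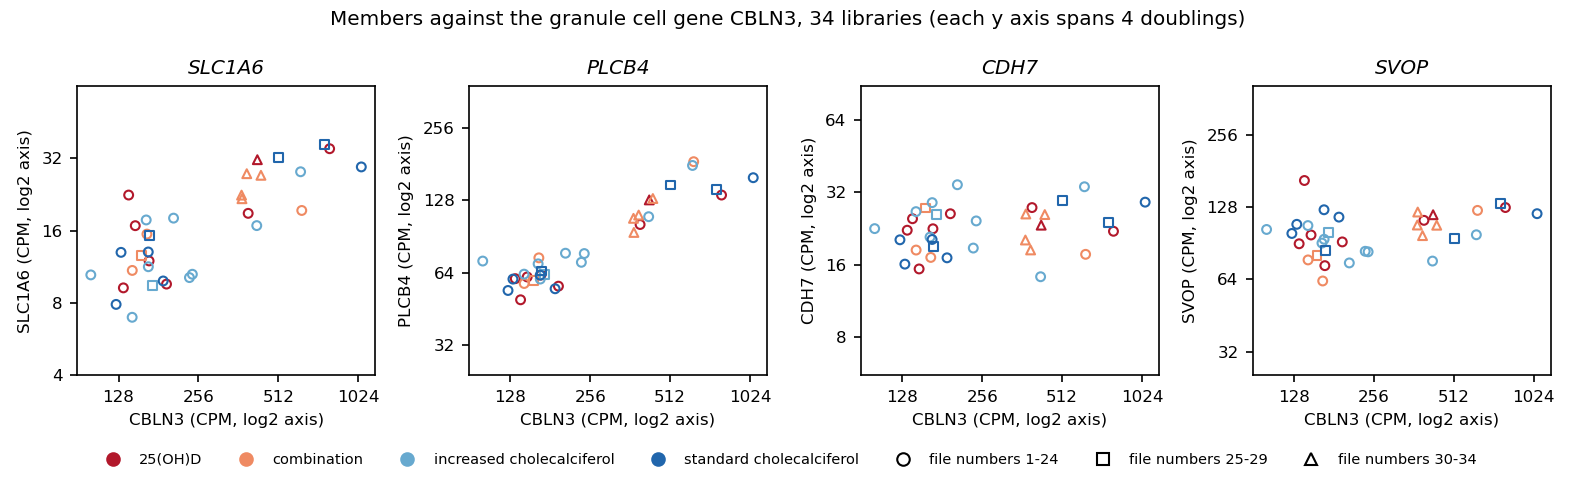
Level of SLC1A6, PLCB4, CDH7 and SVOP (y axes, CPM, log2 scale of equal length) against CBLN3 (x axes, CPM, log2 scale) in the 34 libraries, coloured by diet and shaped by file number. SLC1A6 and PLCB4 stand higher in the 13 libraries right of the gap, with medians of 27.6 and 130 CPM there, against 11.3 and 62.5 CPM left of it. CDH7 and SVOP differ less, with medians of 23.9 and 113 CPM right of the gap, against 22.2 and 91.6 CPM left of it.

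Other known Purkinje cell genes were set beside SLC1A6 and PLCB4. Of 17 Purkinje cell markers tested, leaving out the members themselves, 15 were called higher with CBLN3, FOXP2 was called lower (slope −0.24) and CACNA1A was not called. Their median slope was 0.68, against 0.00 over all genes tested. Among the largest slopes were those of CALB1, a calcium buffer of Purkinje cells (1.08, 21.9 to 342 CPM), CA8, which encodes a partner of ITPR1 (1.08), and the transcription factor gene LHX5 (0.99, near the floor at 0 to 2.67 CPM). PCP2, expressed almost only in Purkinje cells and bipolar cells of the retina, had a slope of 0.94 at 3.78 to 39.1 CPM. Of 14 granule cell markers, 13 were called higher, with a median slope of 0.99, and SLC17A7, the vesicular glutamate transporter that cortical neurons also use, was not (−0.02). These lists were chosen with earlier results in view, and 6 of 7 tested cerebral cortex markers were called lower with CBLN3 (median −1.10). TBR1 thus moved against CBLN3 (slope −1.51), and with TBR1 as a further covariate the CBLN3 slope was 0.36 for SLC1A6 (adjusted p = 0.187 by edgeR) and 0.43 for PLCB4 (adjusted p = 0.00182).

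The genes around SLC1A6 and PLCB4 in Purkinje glutamate signalling moved in both directions. Of 15 tested, PLCB4 itself left out, 9 were called higher with CBLN3 and 2 lower, with a median slope of 0.29. ITPR1, the calcium release channel downstream of PLCB4, had a slope of 0.68. The G protein gene GNAQ, which many cells express, had 0.02 and was not called. SHANK2, a scaffold of glutamate synapses (−0.27), and ORAI2, a calcium entry channel (−0.21), were called lower.

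The members were also set beside their relatives, with no test of the difference between genes. Of 4 glutamate transporters tested, SLC1A6 was called higher with CBLN3 and the other 3 lower, namely SLC1A1 of neurons (slope −0.59), SLC1A2 of astrocytes (−0.56) and SLC1A3 of astrocytes and Bergmann glia (−0.17, adjusted p = 0.0498 by edgeR). Of 4 phospholipase C beta genes, PLCB4 and PLCB3 (0.52) were called higher and PLCB1, abundant in the forebrain (−0.37), and PLCB2 (−1.04) lower. PLCB3 (0 to 3.11 CPM) and PLCB2 (0 to 4.81 CPM) lay near the floor. The type II cadherins split into 2 called higher (CDH18, 0.32, and CDH22, 0.18), 4 lower (largest CDH10, −0.61) and 2 not called, CDH7 and CDH8 (−0.08), of 8 tested. Among the synaptic vesicle relatives of SVOP, SV2A was called higher (0.28) and SV2B was not (0.07), of 3 tested with SVOP itself. Of 4 calcium buffers tested, CALB1 (1.08) and CALB2 (0.34), which granule cells contain, were called higher, and PVALB and S100G were not.

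**Figure D3:**
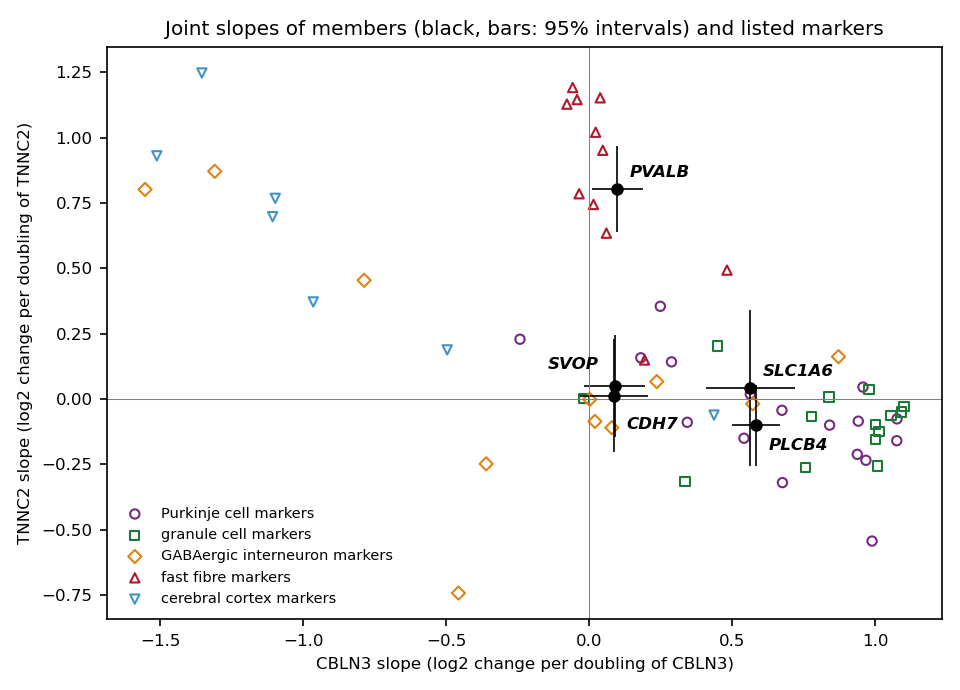
CBLN3 slope (x axis) and TNNC2 slope (y axis), each the log2 change per doubling of that gene in the joint model, for the 5 members (black, with 95% intervals) and for listed markers of 5 cell or tissue types. SLC1A6 and PLCB4 lie to the right at CBLN3 slopes of 0.56 and 0.58, short of most granule cell markers, PVALB lies among the fast fibre markers at a TNNC2 slope of 0.80, and CDH7 and SVOP lie near 0 on both axes.

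The second comparison set PVALB against the muscle gene TNNC2 and the granule cell gene CBLN3 at once. Over all 34 libraries PVALB went up and down with TNNC2 and other muscle genes. Its partial r was 0.884 with TNNC2 and 0.436 with CBLN3 (permutation p = 1e-05 and 0.00950). The partial rho with CBLN3 and the CBLN3 slope did not pass the threshold. Both passed with CBLN1 in place of CBLN3 and with ACTA1 in place of TNNC2. In the 21 libraries below the CBLN3 gap the order was the reverse with TNNC2 as the muscle gene, but not with ACTA1. Where TNNC2 was highest, at 1879 CPM in 25(OH)D replicate 1, PVALB was at 1526 CPM, and where TNNC2 was lowest, at 296 CPM in standard cholecalciferol replicate 1, PVALB was at its minimum of 421 CPM although CBLN3 was at its maximum of 1053 CPM there. The TNNC2 slope, at fixed CBLN3, was 0.80 for PVALB (SE 0.08, 0.64 to 0.97, adjusted p = 5.58e-09 by edgeR), which was 1 of the 5 members called higher, where 1.95% of all genes tested were called higher and 0.0429% lower. It was 0.04 for SLC1A6 (adjusted p = 0.947), −0.10 for PLCB4 (0.663), 0.01 for CDH7 (0.981) and 0.05 for SVOP (0.890). The number of genes called, 279, was 593 without standard cholecalciferol replicate 1, the library with the lowest TNNC2.

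Of 11 fast fibre markers tested, leaving out PVALB, 9 were called higher with TNNC2 and none lower, with a median TNNC2 slope of 0.95, against −0.01 over all genes tested. ACTA1, the skeletal muscle actin, had a slope of 1.19, the troponin genes TNNT3 and TNNI2 had 1.15 and 1.02, and CKM, the muscle creatine kinase, had 1.15. None of the 17 other Purkinje cell markers was called with TNNC2. Of 7 markers of the cerebral cortex, whose interneurons also contain parvalbumin, 2 were called higher with TNNC2 and none lower, with a median TNNC2 slope of 0.70. The 2 were TBR1 (0.93, adjusted p = 0.0207) and FEZF2 (1.25, adjusted p = 0.00811 by edgeR), both transcription factor genes of deep-layer cortical neurons. Of 11 other markers of GABAergic interneurons, SST, the somatostatin gene (0.80), was called higher and none lower, with a median TNNC2 slope of 0.00. VIP, a neuropeptide gene of cortical interneurons, had 0.87 (adjusted p = 0.0515), LHX6, a transcription factor gene of forebrain interneurons, 0.45 (adjusted p = 0.553) and GAD1, which encodes an enzyme that makes GABA, −0.74 (adjusted p = 0.376 by edgeR). With TBR1 as a further covariate, the TNNC2 slope of PVALB was 0.73 (0.54 to 0.93, adjusted p = 3.11e-06 by edgeR), and its TBR1 slope was 0.08 (−0.04 to 0.19, adjusted p = 0.648).

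Over all 34 libraries, PVALB and TNNC2 had r = 0.870 and rho = 0.803 (permutation p = 1e-05 for both, the smallest that 100000 resamples can give, adjusted p = 3.75e-05 and 4.29e-05 over 30 relations). It was r = 0.852 without the 2 libraries farthest from the median of TNNC2, and 0.802 within file numbers 1 to 24 alone. With CBLN3 held fixed, the partial r was 0.884 and the partial rho 0.780 (permutation p = 1e-05 for both, adjusted p = 2e-05 for r over 2 tests). With TNNC2 held fixed, the partial r of PVALB with CBLN3 was 0.436 (permutation p = 0.00950, adjusted p = 0.00950 over 2 tests) and the partial rho 0.237 (p = 0.180). Within file numbers 1 to 24 the partial r of PVALB with TNNC2 was 0.813 (permutation p = 5e-05, the smallest that 20000 resamples can give). The partial r with CBLN3 missed 0.05 within the same file numbers (0.225, permutation p = 0.298), and without standard cholecalciferol replicate 1 (0.334, p = 0.0547). Holding ACTA1 in place of TNNC2 fixed gave a partial r with CBLN3 of 0.708 (permutation p = 5e-05) and a partial rho of 0.548 (p = 0.0009). With CBLN1 in place of CBLN3, the partial r was 0.490 and the partial rho 0.390 (permutation p = 0.0023 and 0.0223). In the other settings over all 34 libraries the partial rho did not pass.

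The 2 sets of libraries gave different splits, and the difference between them was not tested. Above the gap (n = 13), the partial r of PVALB with TNNC2 was 0.937 (permutation p = 5e-05) and that with CBLN3 0.543 (p = 0.0493), while the partial rho was 0.904 with TNNC2 (permutation p = 5e-05) and 0.114 with CBLN3 (p = 0.722). Without TNNC2 held fixed, PVALB ran against CBLN3 there, with r = −0.613 and rho = −0.692 (permutation p = 0.0266 and 0.0114, adjusted p = 0.0760 and 0.0325), as did TNNC2 itself (r = −0.769). These 13 libraries included all 5 of file numbers 30 to 34, which had 372 to 441 CPM of CBLN3. PVALB lay at 1122 to 1516 CPM and TNNC2 at 1173 to 1789 CPM in those 5. The correlations above the gap were not taken without them. Below the gap (n = 21), PVALB had r = 0.777 with CBLN3 (rho = 0.696, permutation p = 7e-05 and 0.00059, adjusted p = 0.0007 and 0.0037) and 0.603 with TNNC2 (rho = 0.551, permutation p = 0.00397 and 0.0114). The partial r with TNNC2 there was −0.218 (permutation p = 0.338) and that with CBLN3 was 0.638 (p = 0.00365). In those 21 libraries TNNC2 and CBLN3 rose together (r = 0.865, rho = 0.762, permutation p = 1e-05 and 0.00011), so that they share most of their variation. With ACTA1 as the muscle gene, whose r with CBLN3 was 0.582 there, the partial r of PVALB below the gap was 0.851 with ACTA1 (permutation p = 5e-05) and 0.697 with CBLN3 (p = 0.00035). Above the gap it was 0.952 with ACTA1 (permutation p = 5e-05) and 0.307 with CBLN3 (p = 0.300). The cortex gene TBR1 went with PVALB as closely as the muscle genes did above the gap, with r = 0.954 and rho = 0.929, against r = 0.945 and rho = 0.951 for TNNC2 (permutation p of 3e-05 or less for each). TBR1 and TNNC2 went together there as well (r = 0.954, rho = 0.956, permutation p = 1e-05 for both), so that muscle and cortex transcripts cannot be told apart as correlates of PVALB in those 13 libraries. Below the gap, TBR1 had r = −0.185 and rho = −0.422 with PVALB (permutation p = 0.405 and 0.0582) and r = −0.203 with TNNC2 (p = 0.376).

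On the linear scale over all libraries, PVALB was described by 0.765 CPM per CPM of TNNC2 plus 0.227 CPM per CPM of CBLN3 and an intercept of 20.8 CPM. TNNC2 alone accounted for 75.6% of the variance of log2 PVALB, CBLN3 alone for 9.53% and both for 80.3%. The ratio of PVALB to TNNC2 had a median of 0.879, its lowest value of 0.526 in increased cholecalciferol replicate 7 and its highest of 1.42 in standard cholecalciferol replicate 1. The log2 SD was 0.28 for that ratio, 0.90 for the ratio of PVALB to CBLN3 and 0.51 for PVALB itself.

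**Figure D4:**
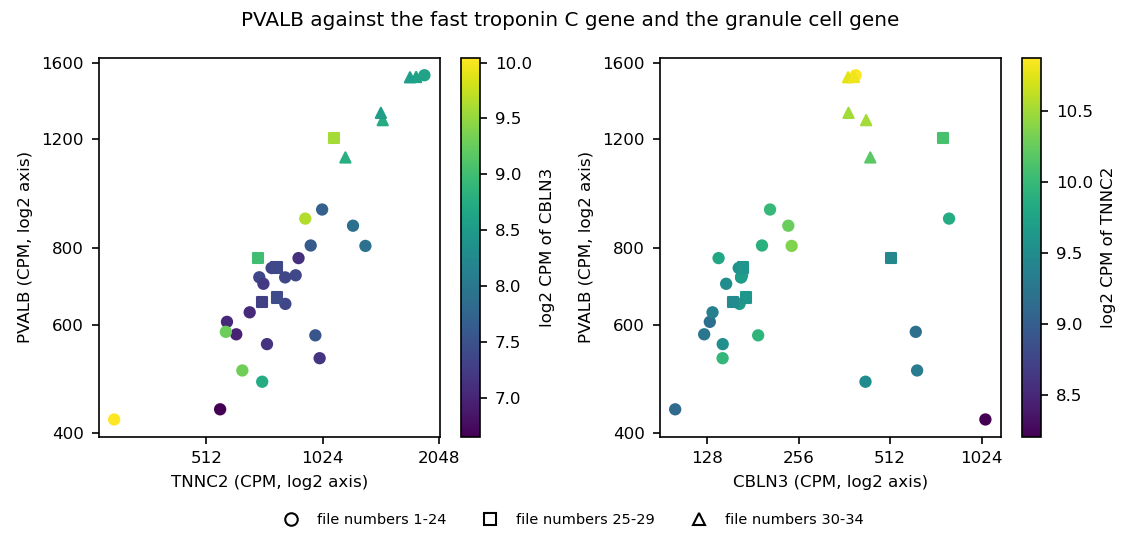
PVALB (y axes, CPM, log2 scale) against TNNC2 (left, coloured by log2 CPM of CBLN3) and against CBLN3 (right, coloured by log2 CPM of TNNC2) in the 34 libraries, shaped by file number. PVALB rises with TNNC2 across the panel (r = 0.870), while against CBLN3 the r is 0.777 in the 21 libraries left of the gap and −0.613 in the 13 right of it. The triangles of file numbers 30 to 34 all lie right of the gap, at 372 to 441 CPM of CBLN3.

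The genes most like each member were those with the highest Spearman rho over the 34 libraries among 11129 other genes with a symbol, a description in which the 2 sets of libraries weigh heavily. For SLC1A6 they were ZNF219 (rho = 0.948), a zinc finger gene, ZIC1 (0.916), a transcription factor gene of granule cells, and SHF (0.906), an adaptor gene. CBLN1 came at rank 98 and CBLN3 at rank 336. For PLCB4 they were the forkhead gene FOXN3 and the granule cell gene ZIC2 (0.898 each) and SMC3 (0.889), a cohesin subunit gene, with CBLN1 at rank 36 and CBLN3 at rank 72. For PVALB they were the muscle genes NEB (0.953), which encodes nebulin of the thin filament, TPM2 (0.914), a tropomyosin, and TRDN (0.907), the triadin of the calcium release complex, with TNNC2 at rank 16, CBLN1 at rank 527 and CBLN3 at rank 808. CDH7 had no close match, the nearest being SLC4A10 (0.674), a bicarbonate transporter of neurons, TM2D2 (0.671) and SGIP1 (0.636), an endocytic protein of neurons. For SVOP they were the adaptor gene CRK (0.829), the organellar exchanger gene SLC9A7 (0.819) and the nucleoporin gene NUP50 (0.804).

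The study's own question, whether the diets differed, was asked of the members in 6 pairs of diets, several of which share a diet. None of the 30 differences passed (edgeR with diet and sex, Benjamini-Hochberg adjustment over 13974 genes), and in each of the 6 comparisons 0% of all genes tested were called. At an unadjusted p below 0.05, edgeR counted 452 genes for 25(OH)D against standard cholecalciferol, 607 for the combination against standard, 1086 for increased against standard, 578 for the combination against increased, 1672 for 25(OH)D against increased and 1058 for 25(OH)D against the combination. DESeq2 also called 0 in each. Without file numbers 30 to 34, edgeR called 2 genes for 25(OH)D against the combination and 1 for the combination against increased cholecalciferol, none of them a member.

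Of the 30 diet differences, only differences of PVALB had an unadjusted p below 0.05. It averaged 980 ± 436 CPM on the combination, against 675 ± 165 CPM on increased cholecalciferol (SD, n = 8 and 10), and the ranges overlapped. The log2 difference was 0.54 (SE 0.22, 95% interval 0.09 to 0.98, p = 0.0202, adjusted p = 0.931 by edgeR). On standard cholecalciferol PVALB averaged 703 ± 233 CPM (SD, n = 8), and its range overlapped that of the combination too. The log2 difference between the combination and standard cholecalciferol was 0.48 (SE 0.23, 0.01 to 0.96, p = 0.0472, adjusted p = 0.999 by edgeR). Without file numbers 30 to 34 both turned, to −0.27 (−0.74 to 0.19) and −0.29 (−0.76 to 0.17). TNNC2 moved with it, with 0.67 between the combination and standard cholecalciferol over all libraries and −0.02 without those file numbers. With CBLN3 and TNNC2 as covariates, the PVALB difference between the combination and standard cholecalciferol was −0.11. On 25(OH)D, PVALB averaged 917 ± 319 CPM (SD, n = 8), and it differed from standard cholecalciferol by 0.38 (−0.09 to 0.86) and from increased cholecalciferol by 0.44 (−0.01 to 0.89). The part of muscle content and of these file numbers in the PVALB differences was not tested further.

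For the other members the log2 differences between diets ran from −0.52 to 0.48 for SLC1A6, from −0.35 to 0.32 for PLCB4, from −0.18 to 0.15 for CDH7 and from −0.27 to 0.27 for SVOP. SLC1A6 averaged 14.0 ± 6.27 CPM on increased cholecalciferol, against 19.7 ± 11.2 CPM on standard cholecalciferol (SD, n = 10 and 8), a difference of −0.52 (−1.12 to 0.08, adjusted p = 0.659 by edgeR). Over all libraries, the 95% intervals of all 6 comparisons stayed within a 2-fold change in either direction for PLCB4, PVALB, CDH7 and SVOP. For SLC1A6, those of 3 of 6 did. Without file numbers 30 to 34, the interval of 25(OH)D minus combination passed 2-fold for PLCB4 (−1.14 to 0.37) and for PVALB (0.10 to 1.06). Those of CDH7 and SVOP stayed within 2-fold there too. In descending order of their medians, the diets were combination, 25(OH)D, standard and increased cholecalciferol for SLC1A6. For PLCB4 they were combination, increased, standard cholecalciferol and 25(OH)D. For PVALB they were combination, 25(OH)D, increased and standard cholecalciferol. For CDH7 they were increased, 25(OH)D, standard and combination, and for SVOP standard, 25(OH)D, combination and increased cholecalciferol. No neighbours in these orders differed past the threshold. Of the 8 combination libraries, 4 were of file numbers 30 to 34. SLC1A6 lay at 21.7 to 27.6 CPM in those 4, against 10.9 to 19.4 CPM in the other libraries of that diet. PLCB4 lay at 94.04 to 130 CPM in those 4, against 57.7 to 185 CPM in the others. The orders were not taken without those file numbers. Taking each member as a log2 ratio to CBLN3 gave no difference between diets in 30 two-sided exact permutation tests (smallest p = 0.130, smallest adjusted p = 0.894, largest difference 0.65).

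**Figure D5:**
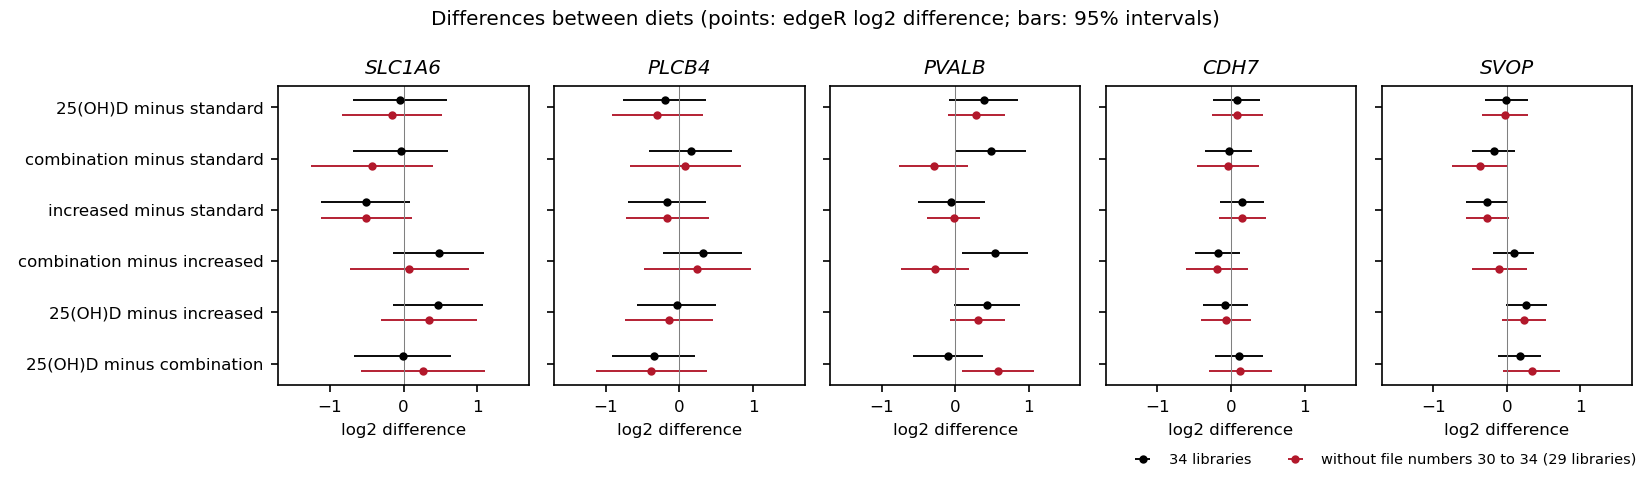
Log2 difference (x axis, edgeR) of each member for the 6 pairs of diets (rows), over all 34 libraries (black) and without file numbers 30 to 34 (red, 29 libraries), with 95% intervals. Without those libraries the PVALB differences of the combination against increased and standard cholecalciferol lie at −0.27 and −0.29, where over all libraries they lie at 0.54 and 0.48.

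Females and castrated males were compared in the same model. No member was among the 11 genes called, 0.0787% of those tested, all of them lower in females. CDH7 lay at 16.1, 25.1 and 34.4 CPM in the 18 females (lowest, median, highest), against 14.2, 19.7 and 27.6 CPM in the 16 castrated males, so that the sexes overlapped. It had the smallest p among the members, with a log2 difference of 0.25 between females and castrated males (SE 0.11, 0.03 to 0.47, p = 0.0265, adjusted p = 0.719 by edgeR).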

How the data were processed

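The deposited values are raw counts of reads per gene, not normalized, with a file for each library. FastQC, TopHat, HTSeq and DESeq2 are named per the submitters' processing notes, with no version. The genome build, annotation and strand setting were not given in the sources used here. Each file's 5 HTSeq category lines were left out (outside features 16.4 to 29.9% of reads, ambiguous 3.63 to 4.68%, aligned to several places 11.2 to 20.7%), so that genes with close copies may be undercounted. Symbols came from a table of gene names that matched 15029 of 31907 identifiers, and no sequences or coordinates were used.

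Diet and sex came from the labels, doses from the series description, and replicate numbers from accession order. Since the description counts individuals, spread between libraries was read as spread between animals. No 2 files were identical among 561 pairs. Counts were tested with edgeR 4.0.16 in R 4.3.3 (TMM scaling, expression filter by diet, quasi-likelihood F-test, two-sided) on diet and sex over all 34 libraries, and on log2 CPM (prior count 3) of CBLN3 and TNNC2 with diet and sex, with Benjamini-Hochberg adjustment over all genes and a threshold of 0.05. Each SE is the log2 change divided by the square root of F. Correlations used log2 CPM and two-sided permutation tests with 100000 resamples (20000 for alternatives) in Python 3.11.15 with numpy 2.4.6. The model was also run on counts simulated from its own fitted spread. That simulation held no separate effect of file numbers or of cortex transcripts, so it cannot speak to those.

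The genes and lists were chosen with earlier results of these data known. Named genes were the 5 members and their comparison genes, the 3 most alike genes of each member, and in each list up to 4 genes with the largest slopes among those called and the closest relatives of a member. Genes named outside this rule, such as FOXP2, CACNA1A, LHX6 and GNAQ, were chosen after their values were seen, and some genes the rule names are not reported here. Alternatives were DESeq2 1.42.0 and its size factors, no filter, prior count 0.5, CBLN1 and ACTA1 as references, TBR1 and covariates, file numbers, and leaving out each library. The block of file numbers, used as a term, was 1 to 24, 25 to 29 or 30 to 34, and no label gives a sequencing run. Total-count scaling of the models, the sides of the CBLN3 gap, linear CPM and the comparison of sexes were added after seeing the data.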

Additional observations from a re-analysis of the deposited data

Results flagged for a closer look

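Within the 20 sets of 1 gene and 1 diet, 4 held a library far from the rest by Dixon's criterion, where chance gives about 1 in 20. Increased cholecalciferol replicate 1 had SLC1A6 at 28.1 CPM, against 18.0 CPM in the next library of that diet, and PLCB4 at 179 CPM, against 109 CPM. CBLN3 was at 622 CPM in that library. PVALB was at 1208 CPM in standard cholecalciferol replicate 8, against 770 CPM in the next, and TNNC2 was at 1099 CPM there. CDH7 was at 15.4 CPM in 25(OH)D replicate 4, against 22.0 CPM in the nearest library of that diet.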

How the results depend on the processing

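The CBLN3 slopes of SLC1A6 and PLCB4 and the TNNC2 slope of PVALB kept their sign under every alternative run, among them DESeq2, other size factors, no filter on low counts, CBLN1 in place of CBLN3, ACTA1 in place of TNNC2 and leaving out each library in turn. They also stayed past the threshold, except where TBR1 (SLC1A6, 0.36) or the side of the CBLN3 gap (SLC1A6, 0.27, and PLCB4, 0.31) entered the model. Those 2 terms lowered the genes called with CBLN3 to 1284 and 386. The genes called with TNNC2 numbered 422 with DESeq2, 891 with ACTA1 in its place, 159 with the block of file numbers as a term, 113 without file numbers 30 to 34, 101 in file numbers 1 to 24 and 103 with TBR1, and 222 to 593 when 1 library was left out. The cause of these shifts was not tested.

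The partial r of PVALB with TNNC2 lay between 0.810 and 0.965 in all alternatives other than the libraries below the CBLN3 gap (−0.218), and with 1 library left out between 0.849 and 0.908. The partial r with CBLN3 missed the threshold in file numbers 1 to 24 (0.225), without file numbers 30 to 34 (0.362), as residuals from diet, sex and block of file numbers (0.333), without the 2 farthest libraries (0.310) and above the gap with ACTA1 (0.307), and lay between 0.334 and 0.510 with 1 library left out. The r of PVALB with CBLN3 was −0.613 above the gap, and that of SVOP −0.321 below it.

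No diet comparison called a gene under most alternatives. The exceptions were 25(OH)D against the combination, with 2 genes without file numbers 30 to 34 and 8 in file numbers 1 to 24, and the combination against increased cholecalciferol, with 1 gene with the block of file numbers as a term, 1 without file numbers 30 to 34 and 2 in file numbers 1 to 24. No ratio to CBLN3 differed under any alternative run. Scaling by total counts moved the median gene by −0.12 for 25(OH)D minus combination and by −0.11 for 25(OH)D minus increased cholecalciferol.

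The members' diet differences that changed sign were all short of the threshold. For 25(OH)D minus combination, PVALB was 0.50 with the block of file numbers as a term, 0.58 without file numbers 30 to 34, 0.61 in file numbers 1 to 24 and 0.058 with CBLN3 and TNNC2 as covariates, SLC1A6 was 0.34, 0.27, 0.21 and 0.10 under the same 4, and CDH7 was −0.0022 by total counts. For 25(OH)D minus standard, SLC1A6 was 0.035 with the block term, 0.28 in file numbers 1 to 24 and 0.13 with covariates, PLCB4 0.028 and PVALB −0.056 with covariates, CDH7 −0.016 by total counts and SVOP 0.0071 with DESeq2 and 0.0072 with its size factors. For combination minus standard, PVALB was −0.12, −0.29, −0.072 and −0.11 under those 4, SLC1A6 0.072 in file numbers 1 to 24 and 0.028 with covariates, and CDH7 0.050 with the block term. For combination minus increased, the block term, file numbers 30 to 34 left out and file numbers 1 to 24 gave −0.21, −0.27 and −0.31 for PVALB and −0.065, −0.10 and −0.053 for SVOP. For increased minus standard, PVALB was 0.083 with the block term and 0.23 in file numbers 1 to 24, and PLCB4 0.15 in file numbers 1 to 24 and 0.16 with covariates.

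Slopes near 0 changed sign as well. The TNNC2 slope of SLC1A6 was −0.19, −0.16 and −0.37 under the same 3 settings of file numbers and −0.022 with the gap term, and that of SVOP −0.039, −0.062 and −0.050 and, with TBR1, −0.011. With TBR1 it was −0.066 for CDH7 and 0.00031 for PLCB4, and without the filter −0.0028 for CDH7. The CBLN3 slope of SVOP was −0.071 with the gap term.

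With 1 library left out, the TNNC2 slope ran from −0.033 to 0.079 for CDH7 and from −0.043 to 0.095 for SLC1A6, and the CBLN3 slope from 0.083 to 0.12 for PVALB and from 0.061 to 0.11 for SVOP. SLC1A6 ran from −0.19 to 0.10 for 25(OH)D minus combination, from −0.23 to 0.18 for 25(OH)D minus standard and from −0.15 to 0.20 for combination minus standard. PVALB ran from −0.24 to 0.035 for 25(OH)D minus combination and from −0.14 to 0.097 for increased minus standard. PLCB4 ran from −0.17 to 0.14 for 25(OH)D minus increased and from −0.061 to 0.31 for combination minus standard, CDH7 from −0.13 to 0.022 for combination minus standard and SVOP from −0.12 to 0.073 for 25(OH)D minus standard.

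No paired analysis was possible because replicate numbers follow the order of accessions and no label ties animals of different diets. Depth limited SLC1A6 and CDH7 most, with as few as 44 and 32 counts in a library.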

Other observations

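Among the genes of the lists that no comparison above turned on, no marker of Bergmann glia, the astrocytes that surround Purkinje cells, was called higher with CBLN3. Of 3 markers tested, SLC1A3 (CBLN3 slope −0.17), also a gene of other astrocytes, and PTPRZ1 (−0.27) were called lower. GDF10 (0.00), at only 0 to 6.18 CPM, was not called by edgeR. Of 11 interneuron markers other than PVALB, 3 were called higher with CBLN3, 5 lower and 3 not called. TFAP2B, a transcription factor gene of cerebellar interneuron precursors (0.87), KIT, a receptor gene of cerebellar molecular layer interneurons (0.57), and SLC32A1, the GABA transporter of synaptic vesicles (0.24), were called higher with CBLN3. SST (−1.55), VIP (−1.31) and LHX6 (−0.79), genes of forebrain interneurons, were called lower, as were SORCS3 (−0.36) and GAD1 (−0.46), and GAD2 (0.0020), ERBB4 (0.020) and LYPD6 (0.079) were not called. Of 4 slow fibre markers tested, 3 were called higher with TNNC2, MYL3 (1.02), MYL2 (0.96) and TNNT1 (0.74), and TNNC1 (0.31) was not.

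Among the genes ranked by their likeness to a member over the 34 libraries, CBLN1 stood nearer than CBLN3 for both SLC1A6 (rank 98 against 336) and PLCB4 (36 against 72).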
